A study of Mus musculus with 19 samples.

Results

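De novo lipogenesis is the synthesis of fatty acids from the carbon of sugar, and 10 genes of this pathway were followed in the epididymal white adipose tissue (eWAT) of mice. The genes were taken by symbol as the enzymes Fasn, Acaca, Acacb, Acly, Scd1, Elovl6 and Me1 and the regulators Srebf1, Mlxipl and Thrsp. All 10 of 10 symbols were found in the deposited table of 24237 genes, and all 10 were among the 8336 genes that passed the filter on low values. On the high-fat diet 7 of the 10 genes were called lower at normal Mg2+, where 12.8% of all genes tested were lower and 24.6% higher, and 9 at low Mg2+, where 3.51% were lower and 12.4% higher. The 9 include Elovl6, whose lower value was favoured by the filter. Centring mice on adipocyte genes changed the 7 to 3 lower and 1 higher, where 70 of the 8336 genes tested were called lower and 7628 higher. Within that diet 6 were called higher with low Mg2+, against 5.58% of all genes tested higher and 12.9% lower, while Fasn, Acly, Elovl6 and Me1 were not called different. Of these 6 calls, 4 held without 3 mice that showed pancreas or epididymis genes, and 1, that of Thrsp, when mice were centred on adipocyte genes, a setting under which 19 of the 8336 genes tested were called higher and 7406 lower.

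The study asked how the Mg2+ content of the diet bears on fat metabolism. All mice were male C57Bl6/J, 9 to 10 weeks old when the diets began, wild type, and were given 1 of 4 diets for 17 weeks. The NormMg-LFD (n = 4) and the LowMg-LFD (n = 5) gave 10% of energy as fat, and the NormMg-HFD (n = 5) and the LowMg-HFD (n = 5) gave 60%, with palm oil as the fat in each. MgO made up 0.21% (wt/wt) of the NormMg diets and 0.03% of the LowMg diets. Each library came from the eWAT of 1 mouse, and values are given as FPKM, a level adjusted to transcript length and to library size. Where every mouse is given, the order is that of the replicate numbers, 2 to 5 in NormMg-LFD and 1 to 5 in the other groups.

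In this pathway citrate that leaves the mitochondrion is split to acetyl-CoA by ATP citrate lyase (Acly), carboxylated to malonyl-CoA by acetyl-CoA carboxylase (Acaca in the cytosol, Acacb at the mitochondrial surface, where malonyl-CoA restrains fatty acid oxidation) and built into palmitate by fatty acid synthase (Fasn). Malic enzyme (Me1) is a source of the NADPH that the synthase consumes, Elovl6 lengthens palmitate to stearate, and Scd1 puts a double bond into stearate and palmitate. Insulin acts on these genes through the transcription factor SREBP-1 (encoded by Srebf1) and glucose through ChREBP (encoded by Mlxipl), while Thrsp encodes Spot 14, a small protein of lipogenic tissues that responds to thyroid hormone and carbohydrate. White fat is known to lower this pathway on fat-rich diets and to raise it on feeding with carbohydrate.

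All 19 libraries held 12986441 to 13027028 reads, of which 86.1% to 90.4% mapped. FPKM carry no count of reads per gene, so the counting error of a single value is unknown and precision is read from the spread between mice. All 12 adipocyte markers checked were present, with a summed FPKM between 13658 and 30767 in each mouse, whereas the 5 genes found of a list of 7 for mammary epithelium and liver, other lipogenic tissues, summed to 23.0 to 81.3 in NormMg-LFD, 14.4 to 67.1 in LowMg-LFD, 2.9 to 7.2 in NormMg-HFD and 4.4 to 76.7 in LowMg-HFD mice. The 1 of them that was tested was lower in NormMg-HFD than NormMg-LFD mice (log2 -2.40), as were genes of the pathway. It was also higher with low Mg2+ on the HFD (1.65), as were genes of the pathway. The whole list summed to 7.2 or less in each NormMg-HFD mouse, which is under the filter on low values. The tested gene thus passed through other groups, and its low NormMg-HFD value was favoured by the filter in both comparisons. Its part in the differences of the pathway genes was not tested. Exocrine pancreas genes summed to 1756 in NormMg-LFD replicate 3 and to 52.6 or less in the other 18 mice, and epididymis genes to 119 in LowMg-LFD replicate 4 and 56.4 in LowMg-HFD replicate 4, against 9.1 or less elsewhere. The study also left out a LowMg-HFD mouse for pancreatic tissue, and the labels do not say which. Without these 3 mice, 4 of the 10 genes were called higher for low Mg2+ on the HFD, where 463 of the 8336 genes tested were higher and 879 lower. For fat, 7 were then called lower at normal Mg2+ (1004 of all genes lower, 1819 higher) and 10 at low Mg2+ (270 lower, 1097 higher). On the LFD and in the interaction 0 were called, of the 10 as of all genes, where 828 and 1428 had an unadjusted p under 0.05 in limma.

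Short stretches around the start of transcription show the letters that the regulators of this pathway are known to read. The RefSeq table (GRCm38.p6) held 13 windows of 300 bases, 250 before and 50 after an annotated start, for 9 of the 10 genes, and Scd1 is named only. Each window was searched on both strands for the CCAAT box (CCAAT, bound by NF-Y, a usual partner of SREBP), the E-box (CACGTG, bound by USF and by ChREBP with Mlx) and an SRE-like element (TCACNCCAC, bound by SREBP). The 5 windows shown are those of Thrsp and Acacb, which were called higher with low Mg2+ on the HFD, of Fasn, which was not called there, and of Mlxipl, the 1 gene with the other motifs. Capitals mark the motif on either strand, and each window reads 5′ to 3′ on the strand of the gene.
Fasn, chr11:120824498-120824797, minus strand: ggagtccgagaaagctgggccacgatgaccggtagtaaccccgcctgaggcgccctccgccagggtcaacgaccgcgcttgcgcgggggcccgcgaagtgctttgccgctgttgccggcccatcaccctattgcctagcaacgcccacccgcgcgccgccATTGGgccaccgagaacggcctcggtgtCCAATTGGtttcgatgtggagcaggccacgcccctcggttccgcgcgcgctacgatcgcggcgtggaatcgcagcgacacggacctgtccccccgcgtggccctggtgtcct
Thrsp, chr7:97417501-97417800, minus strand: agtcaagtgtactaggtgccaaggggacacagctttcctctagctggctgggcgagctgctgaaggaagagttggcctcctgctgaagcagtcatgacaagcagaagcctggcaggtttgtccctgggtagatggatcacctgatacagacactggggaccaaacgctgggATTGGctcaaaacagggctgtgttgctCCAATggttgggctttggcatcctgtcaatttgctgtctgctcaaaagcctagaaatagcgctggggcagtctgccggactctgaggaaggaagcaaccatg
Acacb, chr5:114165268-114165567, plus strand: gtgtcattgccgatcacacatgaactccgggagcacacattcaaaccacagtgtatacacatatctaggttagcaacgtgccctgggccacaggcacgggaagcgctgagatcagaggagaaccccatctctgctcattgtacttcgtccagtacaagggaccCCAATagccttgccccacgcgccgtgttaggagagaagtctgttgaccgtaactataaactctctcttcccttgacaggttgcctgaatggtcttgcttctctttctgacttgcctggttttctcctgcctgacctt
Mlxipl, first start, chr5:135089640-135089939, plus strand: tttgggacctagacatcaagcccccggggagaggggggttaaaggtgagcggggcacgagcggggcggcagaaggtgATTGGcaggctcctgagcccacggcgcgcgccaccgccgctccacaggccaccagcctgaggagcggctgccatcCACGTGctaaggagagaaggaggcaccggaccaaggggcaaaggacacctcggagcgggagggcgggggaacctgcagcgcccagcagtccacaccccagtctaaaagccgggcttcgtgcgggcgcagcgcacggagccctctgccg
Mlxipl, second start, chr5:135106641-135106940, plus strand: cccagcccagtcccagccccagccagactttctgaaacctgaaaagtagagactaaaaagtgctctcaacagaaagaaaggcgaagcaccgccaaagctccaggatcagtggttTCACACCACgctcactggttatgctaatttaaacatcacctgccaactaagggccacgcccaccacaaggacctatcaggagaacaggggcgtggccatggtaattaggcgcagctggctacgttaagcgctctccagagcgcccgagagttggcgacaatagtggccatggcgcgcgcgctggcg

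A CCAAT box stood in 8 of the 13 windows, belonging to 7 of the 9 genes, against 37.4% of all 32851 windows. The Fasn window held 3 of them, beginning 90, 62 and 59 bases before the start, and 2 of these overlap in a run that reads as a CCAAT box on both strands. Thrsp held 2, beginning 79 and 52 bases before its start, and Acacb 1, beginning 87 bases before. The Acacb window (from chr5:114165268) and the Acaca window (from chr11:84195188) lie inside the annotated genes, which begin at 114146535 and 84129672. No window lay at the beginning of either gene. The E-box, present in 7.15% of all windows, and the SRE-like element, present in 1.24%, were each found in 1 of the 13, at the first and the second start of Mlxipl, 98 and 136 bases before them. A match is a run of letters and not a shown binding site, and gene-level FPKM do not separate transcripts that begin at different starts of Mlxipl or Srebf1.

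The largest differences lay between the fat levels. At normal Mg2+, 7 of the 10 genes were lower in NormMg-HFD than in NormMg-LFD mice and 0 were higher (limma, Benjamini-Hochberg adjusted p under 0.05), where 12.8% of the 8336 genes tested were called lower and 24.6% higher. The values of the groups did not overlap in 9 genes, all lower on the HFD, against 10.6% of genes lower and 21.5% higher in this way, and the exception was Me1. These 9 include Elovl6, which passed the filter through the LFD groups alone, so that its lower value was favoured. All 12 macrophage markers were higher on the HFD in this comparison (median log2 difference 2.11) and 9 of 12 adipocyte markers lower (median -0.73). After centring on the adipocyte markers Fasn (log2 -0.39, limma adjusted p = 0.267), Acacb (-0.39, 0.0634), Mlxipl (-0.27, 0.223) and Srebf1 (0.01) were not called. That centring called 70 of the 8336 genes tested lower and 7628 higher, and Acaca, Thrsp and Scd1 stayed lower. The median log2 difference of the 10 genes was -1.32, beside 0.07 over all genes tested. In bulk tissue, fewer adipocytes and less of an mRNA per adipocyte cannot be told apart.

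Acaca (chr11:84129672-84401651, GRCm38, plus strand) showed the largest fall. Its FPKM was 240, 209, 140 and 170 in the NormMg-LFD mice and 46.2, 49.0, 33.8, 34.5 and 32.4 in the NormMg-HFD mice. The lowest LFD mouse stood far above the highest HFD mouse, and the fitted log2 difference was -2.24 (SE 0.26, limma adjusted p = 2.68e-06). For Acacb (chr5:114146535-114250761, plus strand), the mitochondrial form, FPKM was 36.8, 53.5, 24.4 and 31.02 on the NormMg-LFD and 13.8, 15.2, 9.65, 12.2 and 13.9 on the NormMg-HFD, a log2 difference of -1.38 (SE 0.20, limma adjusted p = 2.29e-05). Both carboxylases thus had groups that did not overlap.

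Fasn (chr11:120805846-120824547, minus strand), which makes palmitate, had an FPKM of 2018, 1355, 1138 and 1153 on the NormMg-LFD and of 590, 554, 508, 577 and 432 on the NormMg-HFD. Its log2 difference was -1.38 (SE 0.33, limma adjusted p = 0.00307), and the synthase was expressed at several times the level of either carboxylase in each group, on this scale per length. Scd1 (chr19:44394455-44407879, minus strand), the desaturase, was the most abundant of the 10, with 15579, 13269, 8894 and 12804 on the NormMg-LFD and 4273, 4098, 3355, 4156 and 5815 on the NormMg-HFD. Its log2 difference was -1.54 (SE 0.20, limma adjusted p = 7.23e-06), without overlap. Scd1 has close paralogues, and RSEM divides reads that map to more than 1 of them by estimation.

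The regulators fell too. Thrsp (chr7:97412938-97417730, minus strand) was at 876, 868, 568 and 833 FPKM on the NormMg-LFD and at 262, 212, 106, 148 and 224 on the NormMg-HFD, a log2 difference of -2.09 (SE 0.31, limma adjusted p = 2.98e-05). Mlxipl (chr5:135089890-135138382, plus strand) was at 38.0, 47.2, 65.4 and 34.5 against 21.5, 19.3, 13.8, 18.7 and 18.1, a log2 difference of -1.26 (SE 0.18, limma adjusted p = 1.98e-05). Srebf1 (chr11:60199089-60222581, minus strand) had the smallest SD of the 10 on the log2 scale in both of these groups, at 192, 179, 192 and 181 against 93.3, 98.4, 84.1, 99.3 and 94.4, and its log2 difference was -0.98 (SE 0.12, limma adjusted p = 3.77e-06). Srebf1 overlaps Rai1 on the opposite strand, and whether the counting used strand is not given in the sources used here, so reads of the overlap may belong to either gene.

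The 3 enzymes that were not called at normal Mg2+ differed among themselves. Acly (chr11:100476353-100528000, minus strand) was at 265, 201, 181 and 171 FPKM on the NormMg-LFD and 125, 117, 97.4, 105 and 91.9 on the NormMg-HFD. These groups did not overlap, yet the log2 difference of -0.91 (SE 0.41) had a limma adjusted p of 0.092. Elovl6 (chr3:129532355-129638495, plus strand) was at 21.8, 14.4, 13.5 and 13.4 against 9.68, 9.33, 7.01, 11.1 and 5.46, also without overlap, with a log2 difference of -0.83 (SE 0.40, limma adjusted p = 0.117).

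The spread behind these SE is shared by the 4 groups, and for Acly and Elovl6 it was widest among the LowMg-LFD mice. With only the NormMg groups in the fit, Acly (log2 -0.91, limma adjusted p = 0.000268) and Elovl6 (log2 -0.83, limma adjusted p = 0.0072) passed the threshold and 9 genes were called, as they also were without LowMg-LFD replicate 1. Of the 8336 genes tested, 1106 were lower and 2099 higher in the first of these settings, and 1087 and 2081 in the second. Elovl6 passed the filter of FPKM 8 only through the LFD groups, so a lower value on the HFD was favoured by the filter. Me1 (chr9:86581371-86695953, minus strand) was at 409, 266, 195 and 304 on the NormMg-LFD and 291, 301, 265, 288 and 231 on the NormMg-HFD, a log2 difference of -0.05 with a 95% interval from -0.78 to 0.68.

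At low Mg2+, 9 of the 10 genes were lower in LowMg-HFD than in LowMg-LFD mice and 0 were higher (limma, Benjamini-Hochberg), beside 3.51% of all genes called lower and 12.4% higher. The groups did not overlap in 7 genes, all lower on the HFD, against 2.30% of genes lower and 6.99% higher. Elovl6 is among both counts and passed the filter through the LFD groups alone, so its lower value on the HFD was favoured by the filter. Of 12 macrophage markers 8 were higher on the HFD here (median log2 difference 0.82), and of 12 adipocyte markers 4 were lower and 1 higher (median -0.28). Their part in these differences was not tested beyond a centring on the adipocyte markers. The median log2 difference of the 10 genes was -1.29, beside 0.10 over all genes tested. Acaca again had the largest difference (log2 -1.93, SE 0.24, limma adjusted p = 0.000286), followed by Acly (-1.55, SE 0.39), Elovl6 (-1.55, SE 0.38), Fasn (-1.53, SE 0.32), Acacb (-1.34, SE 0.19) and Thrsp (-1.24, SE 0.29). The smallest called differences were those of Mlxipl (-0.93, SE 0.17), Scd1 (-0.91, SE 0.19) and Srebf1 (-0.57, SE 0.11). Me1 had a log2 difference of -0.73 (SE 0.33, limma adjusted p = 0.142), which passed without LowMg-LFD replicate 4 (-0.96, adjusted p = 0.0455) and without the 3 mice with pancreas or epididymis genes (-1.07, adjusted p = 0.0417). With only the LowMg groups in the fit 7 genes were called, where calls over all genes tested fell from 293 to 180 lower and from 1036 to 545 higher, and Acly (limma adjusted p = 0.0675) and Elovl6 (0.054) were not. Scd1 was not called without the filter (limma adjusted p = 0.146), nor Srebf1 after the centring on adipocyte markers given with the marker genes (log2 -0.21, limma adjusted p = 0.197). That centring left 8 genes lower, among them Acaca (-1.57), Fasn (-1.17) and Acacb (-0.98), where 57 of all genes tested were called lower and 4026 higher.

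**Figure D1:**
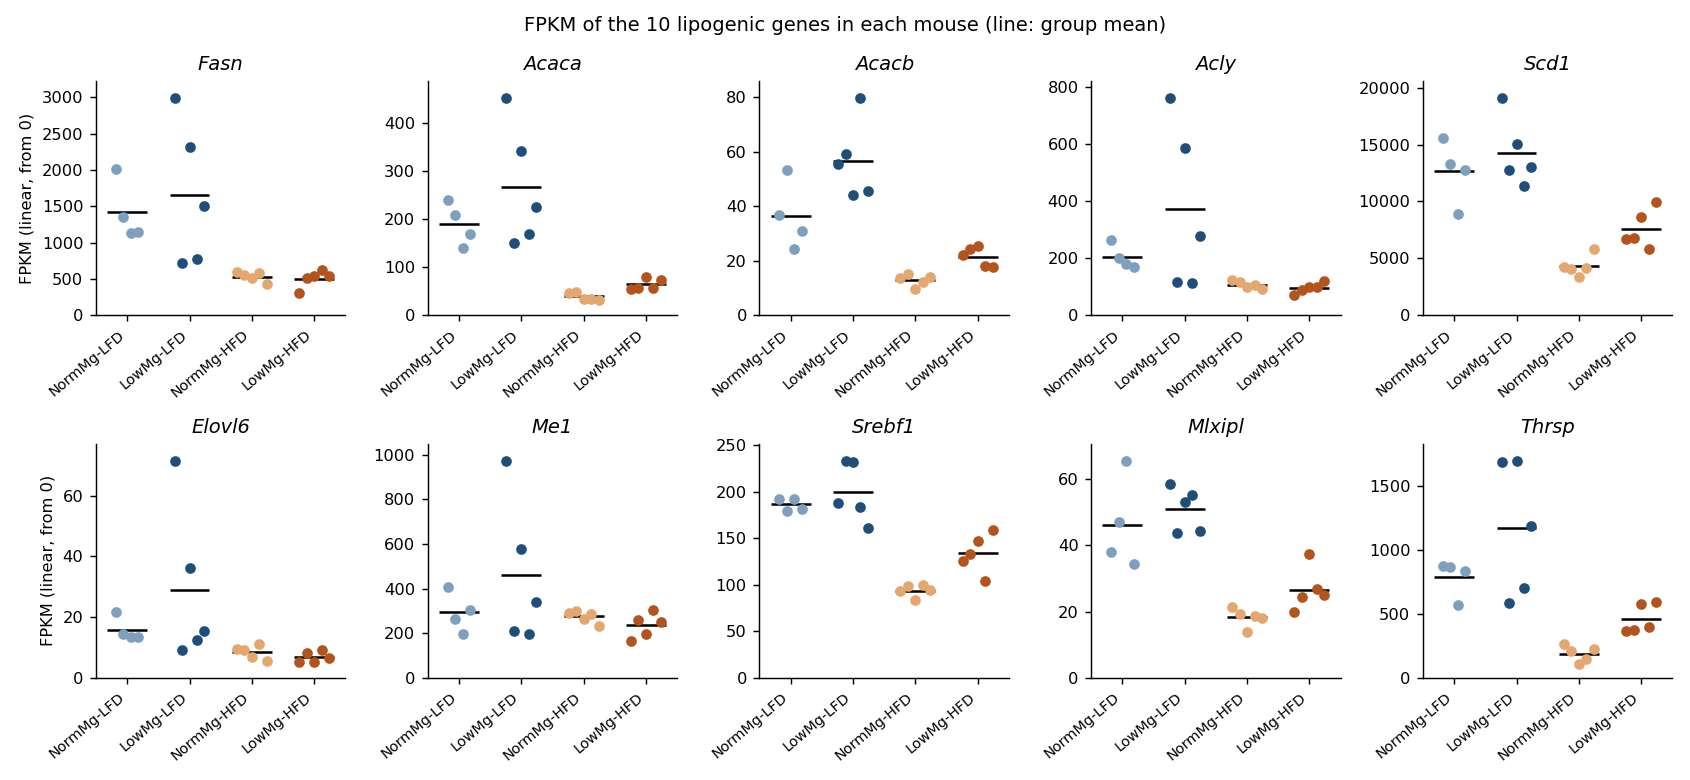
FPKM (vertical axes, linear from 0) of each of the 10 lipogenic genes, with 1 point per mouse in the 4 diet groups and a line at the group mean. The HFD mice sit low in all panels but Me1, the LowMg-HFD points lie above the NormMg-HFD points in Acaca, Acacb, Scd1, Srebf1 and Thrsp, and the LowMg-LFD points are spread wide in Fasn, Acly, Elovl6 and Me1.

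On the HFD, low Mg2+ went with higher expression of the regulators, of both carboxylases and of the desaturase. Of the 10 genes, low Mg2+ had 6 called higher and 0 called lower (LowMg-HFD against NormMg-HFD, limma, Benjamini-Hochberg adjusted p under 0.05), against 5.58% of the 8336 genes called higher and 12.9% called lower. In 5 genes, all higher, the groups did not overlap, against 3.20% of genes higher and 9.56% lower in this way. The median log2 difference of the 10 genes was 0.50, beside -0.04 over all genes tested. Of 12 adipocyte markers 8 were higher (median 0.65), and all 12 macrophage markers were lower (median -1.35). The NormMg-HFD mice are also the HFD group of the comparison at normal Mg2+, so the fall there and the rise here share these 5 mice.

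Thrsp had the largest difference of the 10. Its FPKM of 262, 212, 106, 148 and 224 in NormMg-HFD mice stood against 368, 374, 576, 394 and 594 in LowMg-HFD mice. The lowest LowMg-HFD mouse was above the highest NormMg-HFD mouse, the mean was 2.42 times as high, and the log2 difference was 1.31 (SE 0.29, limma adjusted p = 0.00498). Srebf1 was at 126, 133, 147, 104 and 158 in LowMg-HFD mice, all above the highest NormMg-HFD mouse at 99.3, a log2 difference of 0.50 (SE 0.11, limma adjusted p = 0.00516). Both were called in each of 28 alternative settings, which do not include the 2 added once the data had been examined, and the centring among those ended the call of Srebf1 (-0.27, limma adjusted p = 0.0781).

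Scd1 was at 6743, 6763, 8593, 5859 and 9923 FPKM in LowMg-HFD mice, and the lowest of these lay just above the highest NormMg-HFD mouse, at 5815. The log2 difference was 0.80 (SE 0.19, limma adjusted p = 0.0062). It shrank to 0.36 under quantile normalization (adjusted p = 0.074) and had an adjusted p of 0.197 without the filter. Acacb was at 22.1, 24.4, 25.4, 18.1 and 17.7, all above the NormMg-HFD maximum of 15.2, with a log2 difference of 0.69 (SE 0.19, limma adjusted p = 0.0149). It missed the threshold in 1 of the same 28 settings, without NormMg-HFD replicate 3 (adjusted p = 0.0526).

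For Acaca and Mlxipl the call was close to the threshold. Acaca was at 55.0, 56.1, 79.7, 57.6 and 74.0 in LowMg-HFD mice, where the NormMg-HFD maximum was 49.0, with a log2 difference of 0.71 (SE 0.24, limma adjusted p = 0.0478). It passed in 11 of the 28 settings, with a log2 difference between 0.63 and 0.79 in them, and stood at -0.06 with adipocyte centring. Mlxipl was at 20.0, 24.5, 37.3, 26.8 and 24.9, of which the lowest mouse fell among the NormMg-HFD mice, and its log2 difference of 0.51 (SE 0.17, limma adjusted p = 0.0435) passed in 16 of the 28.

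Without the 3 mice with pancreas or epididymis genes, 4 genes were higher, and Acaca (log2 0.74, limma adjusted p = 0.0582) and Mlxipl (0.50, adjusted p = 0.0859) were not called. Without NormMg-HFD replicate 3, which was the lowest of its group in 5 genes, 3 genes were called, the smallest count among the mice left out in turn, and the counts over all genes tested were the smallest there too, 263 higher and 682 lower against 465 and 1077 with all mice. That mouse also had the lowest summed adipocyte markers of all 19 mice, 13658, and the highest summed macrophage markers, 3577.

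The enzymes from citrate to palmitate and stearate other than the carboxylases were not called. Fasn was at 308, 517, 534, 622 and 539 FPKM in LowMg-HFD mice, which overlapped the 432 to 590 of the NormMg-HFD mice, and its log2 difference was -0.11 with a 95% interval from -0.77 to 0.55. Acly was at 71.4, 87.4, 99.1, 99.1 and 121 (log2 difference -0.18, interval -0.99 to 0.64). Elovl6 was at 5.26, 8.24, 5.28, 9.15 and 6.63 (-0.26, interval -1.05 to 0.54) and Me1 at 163, 257, 198, 306 and 251 (-0.25, interval -0.94 to 0.43). The interval of Fasn does not reach the 0.80 of Scd1, whereas it holds the differences fitted for Srebf1 and Mlxipl, and no test was made of whether these 4 genes differed less than the other 6.

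**Figure D2:**
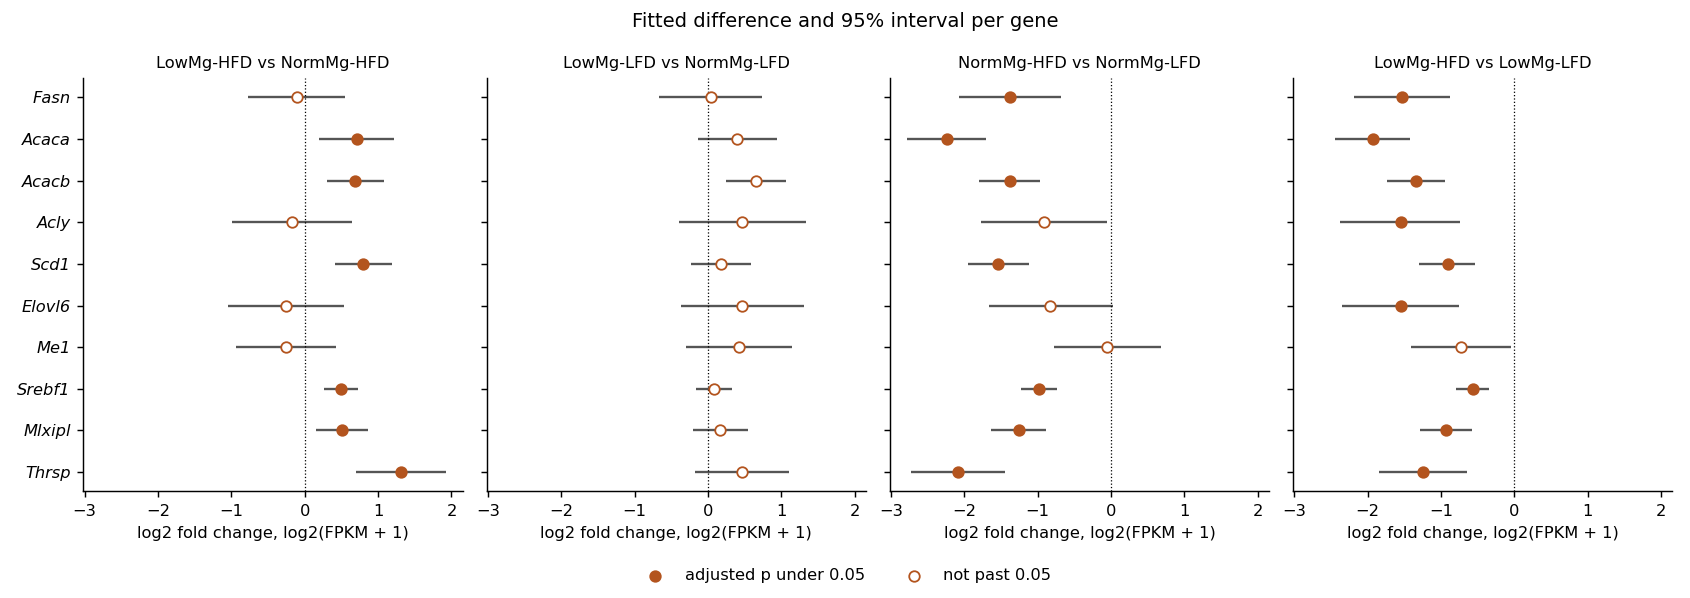
Fitted log2 fold change on the log2(FPKM + 1) scale (horizontal axis) of the 10 genes in 4 comparisons, with bars for the 95% interval and filled points for a limma adjusted p under 0.05. In LowMg-HFD against NormMg-HFD mice the 6 filled points run from 0.50 to 1.31, and the LFD panel has 0 filled points. All point estimates in both fat panels lie left of 0, with intervals that cross 0 at normal Mg2+ for Me1 (-0.78 to 0.68) and Elovl6 (-1.67 to 0.02).

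Of the 12 adipocyte marker genes, low Mg2+ on the HFD had 8 called higher and 0 called lower, with a median log2 difference of 0.65. The 4 that were not called were Fabp4 (0.26), Cidec (0.34), Pparg (0.47) and Lep (-0.28). The largest differences were those of Cfd (2.12), Adrb3 (1.45), Retn (1.33) and Slc2a4 (1.07), and the mean over the 12 was 0.77. The summed FPKM ranged from 17733 to 22477 on the LowMg-HFD and from 13658 to 18585 on the NormMg-HFD. All 12 macrophage markers were lower, with a median of -1.35 and sums of 662 to 2068 against 2241 to 3577, and 0 of the 12 were at 0 FPKM in all mice of a group. Between NormMg-HFD and NormMg-LFD mice the adipocyte markers were not uniform either, since Cidec, a droplet protein, had a log2 difference of 0.03 there and Fabp4, a fatty acid carrier, of 0.04, while the leptin gene Lep was higher on the HFD (1.69). Cfd (-3.80), Adrb3 (-2.57) and Retn (-2.16) were lowered most, and the mean over the 12 was -0.99.

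When each mouse was centred on the mean of the 12 adipocyte markers, which was added once the data had been examined, Thrsp was the 1 gene still called higher with low Mg2+ on the HFD (log2 0.54, limma adjusted p = 0.0404), as were 19 of the 8336 genes tested. Scd1 was then at 0.04, Acaca at -0.06, Acacb at -0.07, Mlxipl at -0.26 and Srebf1 at -0.27, and 0 of these 5 were called. Fasn (-0.87), Acly (-0.94), Elovl6 (-1.02) and Me1 (-1.02) were called lower. This centring moved the median of all genes tested from -0.04 to -0.81 and called 7406 of these genes lower, so the last 4 values lay near that median and the first 6 above it. In NormMg-HFD against NormMg-LFD mice it left Acaca (-1.25), Thrsp (-1.10) and Scd1 (-0.54) lower and Me1 (0.94) higher, where 70 of all genes tested were called lower and 7628 higher, with a median of 1.07. Srebf1 (0.01), Elovl6 (0.17) and Acly (0.08) changed direction there. The centring does not tell the number of adipocytes from the level of these markers per adipocyte. The part of cell composition in these differences was not tested beyond this.

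**Figure D3:**
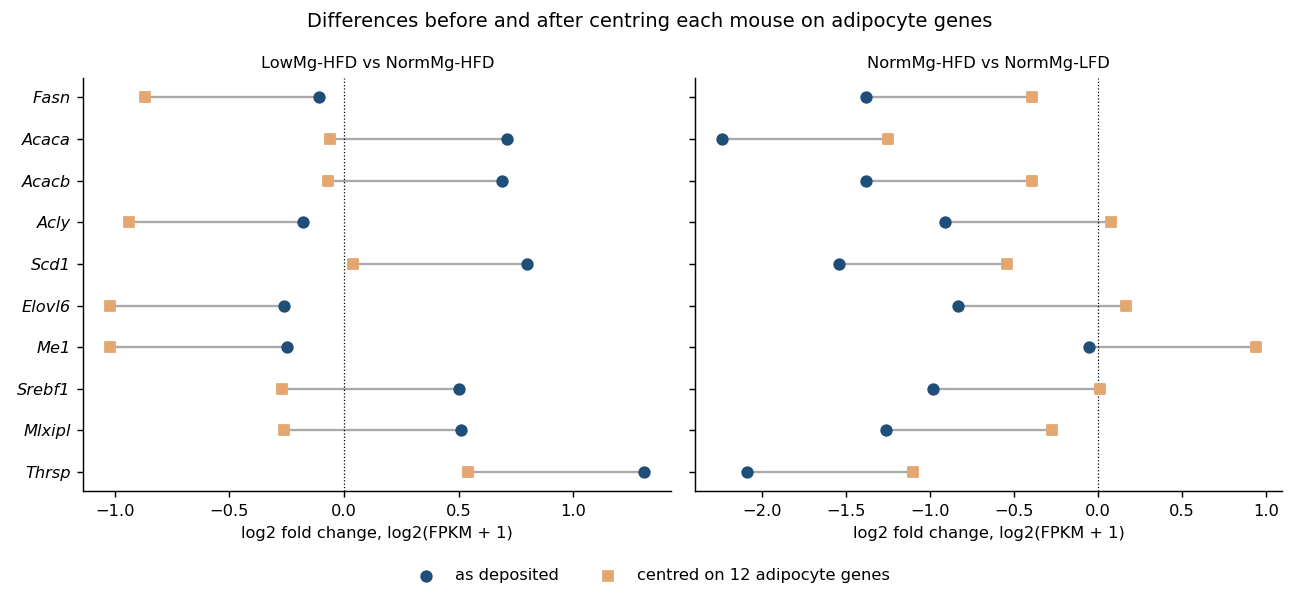
Log2 fold change on the log2(FPKM + 1) scale (horizontal axis) of the 10 genes as deposited (circles) and after each mouse was centred on 12 adipocyte genes (squares), for low Mg2+ on the HFD (left) and for fat at normal Mg2+ (right). All 10 values shift left in the left panel and right in the right panel, and Thrsp (0.54) stays to the right of 0 in the left panel.

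On the LFD, no gene was called with low Mg2+. Of the 10 genes, 0 were higher and 0 lower in LowMg-LFD than in NormMg-LFD mice (limma, Benjamini-Hochberg), as in the whole table, where 0.00% of genes were called higher and 0.00% lower and 547 of 8336 had an unadjusted p under 0.05. The groups overlapped in all 10 genes, while 0.480% of genes were higher and 1.31% lower without overlap. Acacb was the 1 gene with an unadjusted p under 0.05, at 55.4, 59.0, 44.1, 79.6 and 45.7 FPKM on the LowMg-LFD (log2 difference 0.65, SE 0.20, limma adjusted p = 0.74). The 95% interval of the log2 difference was narrow for Srebf1 (-0.16 to 0.33) and Scd1 (-0.23 to 0.59) and wide for Acly (-0.40 to 1.33) and Elovl6 (-0.37 to 1.31).

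By the median SD of these genes, mice differed most among themselves in the LowMg-LFD group. The median SD of the 10 genes on the log2 scale was 0.69 in that group, against 0.34 in NormMg-LFD, 0.23 in NormMg-HFD and 0.31 in LowMg-HFD mice, while over all genes tested it lay between 0.18 and 0.21 in the 4 groups. Elovl6 was at 71.4, 9.35, 36.4, 12.3 and 15.4 FPKM in replicates 1 to 5, and Acly at 762, 118, 587, 113 and 279. Me1 (971, 212, 577, 197 and 341) and Fasn (2987, 715, 2318, 771 and 1501) showed the same mice high. Replicates 1 and 3 were the highest of the group in all of these.

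Thrsp was at 1690, 582, 1694, 704 and 1189 FPKM in the same order, and Acaca at 452, 150, 342, 170 and 226. Replicates 1 and 3 were together the highest pair in 7 of the 10 genes (Fasn, Acaca, Acly, Scd1, Elovl6, Me1 and Thrsp), and this pair was the highest in 6.97% of all genes tested. The exceptions were Acacb (55.4, 59.0, 44.1, 79.6 and 45.7), Srebf1 (188, 233, 232, 183 and 161) and Mlxipl (58.5, 43.8, 53.1, 55.1 and 44.4). Between the lowest and the highest LowMg-LFD mouse, Elovl6 differed 7.64-fold and Fasn 4.18-fold. The enzymes Acacb (1.80-fold) and Scd1 (1.68-fold) and the transcription factor genes Srebf1 (1.45-fold) and Mlxipl (1.33-fold) differed less. The summed adipocyte markers of replicates 1 to 5 were 29846, 30767, 21031, 28445 and 26033, and replicate 3, of the highest pair in 7 genes but the lowest in Acacb, was the lowest in these.

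**Figure D4:**
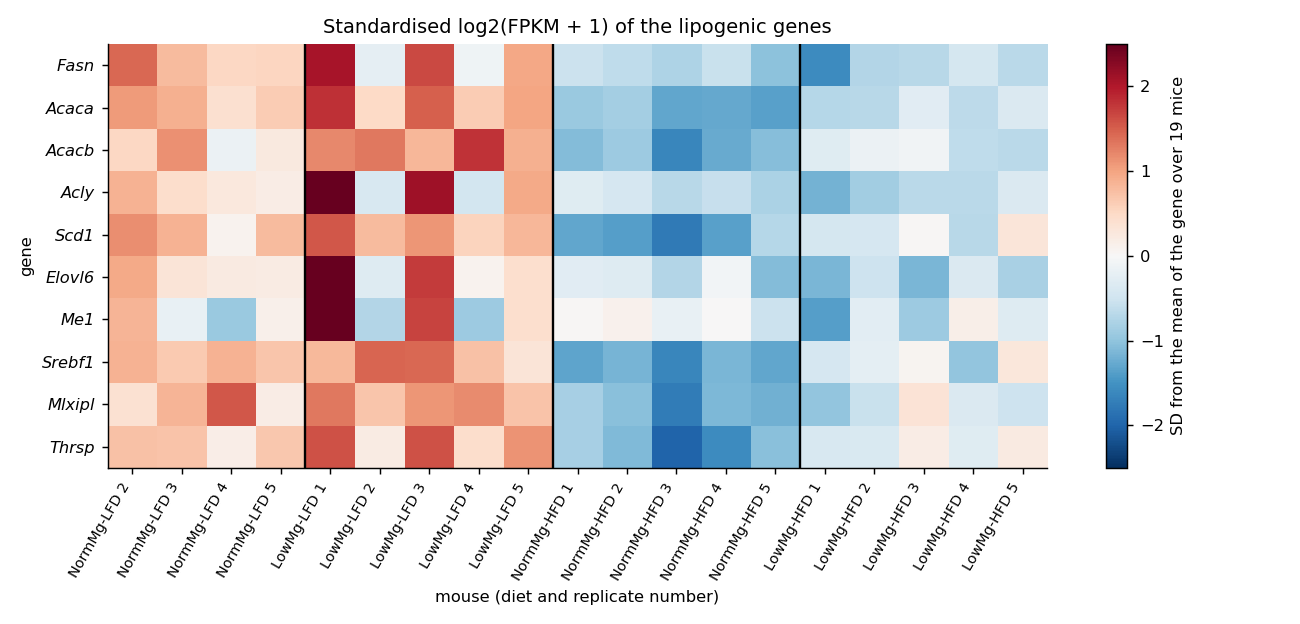
Log2(FPKM + 1) of the 10 genes (rows) in the 19 mice (columns), as SD from the mean of each gene over all mice (red high, blue low), with lines between diet groups. LowMg-LFD replicates 1 and 3 are the darkest red columns for Fasn, Acly, Elovl6 and Me1, and the NormMg-HFD columns are blue in Acacb, Scd1, Srebf1, Mlxipl and Thrsp.

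In other groups, too, single mice stood at the edge in many genes. NormMg-LFD replicate 2 was the highest of its group in 7 genes and replicate 4 the lowest in 6, and replicate 4 also had the lowest summed adipocyte markers of that group (19226). LowMg-HFD replicate 1 was the lowest in 7 genes (Fasn, Acaca, Acly, Elovl6, Me1, Mlxipl and Thrsp), with a summed FPKM of 21651 for adipocyte and 2068 for macrophage markers, the latter the highest on the LowMg-HFD.

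The difference seen with low Mg2+ was not shown to depend on fat. Of the 10 genes, 0 had an interaction past the threshold in either direction (limma, Benjamini-Hochberg), against 0.492% of genes positive and 0.756% negative, and 2 had an unadjusted p under 0.05, as had 1698 of the 8336 genes tested, a like share. These were Srebf1 (log2 0.41, SE 0.16, limma adjusted p = 0.158) and Scd1 (0.62, SE 0.27, adjusted p = 0.205), both with a larger difference on the HFD. Thrsp had the largest interaction, 0.84, with a 95% interval from -0.04 to 1.73.

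Ordered by group means, all 10 genes were highest in LowMg-LFD, and NormMg-LFD came next. The values of these 2 groups overlapped in each gene. In Thrsp, Scd1, Acaca, Acacb, Srebf1 and Mlxipl the LowMg-HFD followed and the NormMg-HFD was lowest, and LowMg-HFD values overlapped those of the NormMg-LFD in Thrsp, Scd1, Acacb and Mlxipl but not in Acaca or Srebf1. In Fasn, Acly, Elovl6 and Me1 the LowMg-HFD had the lowest mean, and it overlapped the NormMg-HFD in each of the 4.

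Over the 19 mice, profiles were compared by the root mean square difference of standardised log2(FPKM + 1), which is 0 for identical profiles. Scd1 and Thrsp (0.29), Fasn and Acly (0.30), and Acly and Elovl6 (0.31) were the closest pairs of the 10, and Me1 and Srebf1 the most distant. Acaca lay closest to the mean of the 10 (0.19) and Me1 farthest from it (0.76). All points share the 4 diet groups, so these are descriptions of the same diets.

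Outside the 10 genes, Pdha1 and Pdhb, subunits of pyruvate dehydrogenase, Pcx (pyruvate carboxylase), and the glycogen enzymes Pygl and Gbe1 were among the 8 tested genes most like the mean of the 10, at 0.21, 0.31, 0.26, 0.27 and 0.29. The other 3 were Map3k15 (0.27), whose annotated span overlaps the end of Pdha1 on the opposite strand, Ptges (0.30) and Park7 (0.30). Most like Thrsp were Pygl (0.26), Cdo1 (0.27), an enzyme of cysteine breakdown, Slc2a4 (0.28), the insulin-dependent glucose transporter, and Cluh (0.29), followed by Gsta3 (0.31), Bche (0.32), Mut (0.32) and Mknk2 (0.34). Slc2a4 is also among the adipocyte markers.

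A further list of 59 symbols of the pathway, some of them alternative names of 1 gene, had 57 in the table and 48 tested. Between LowMg-HFD and NormMg-HFD mice, 2 of the 48 were higher and 2 lower, against 5.58% and 12.9% of all genes tested, and their median log2 difference was -0.02, beside -0.04 over all genes and 0.50 in the 10 genes. Slc2a4, through which glucose enters the adipocyte, was higher, at a mean FPKM of 70.3 ± 10.5 (SD, n = 5) against 34.1 ± 9.79 (SD, n = 5), without overlap (log2 1.07, SE 0.17, limma adjusted p = 0.00178). It is also 1 of the 12 adipocyte markers, whose mean log2 difference was 0.77, as is Fabp4 of this list. Rxra, a nuclear receptor that pairs with the liver X receptors, was higher too (0.35, SE 0.09, limma adjusted p = 0.00889). Elovl1, an elongase of very long saturated fatty acids, was lower (-0.48, SE 0.13, limma adjusted p = 0.0146), as was Idh1, a cytosolic source of NADPH (-0.30, SE 0.10, limma adjusted p = 0.0352).

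By role, 1 of the 12 tested genes of citrate and NADPH supply was higher and 1 lower in that comparison, and 0 and 1 of the 9 other desaturases and elongation enzymes, 0 and 0 of 7 cofactor and carrier enzymes, 1 and 0 of 15 regulators, and 0 and 0 of 5 inhibitors. Between LowMg-LFD and NormMg-LFD mice, and in the interaction, 0 of the 48 passed in either direction. Between NormMg-HFD and NormMg-LFD mice 7 were higher and 10 lower, where 24.6% and 12.8% of all genes tested were, with a median log2 difference of -0.06 beside 0.07 over all genes. The 10 include Fads2 and Aasdhppt, whose NormMg-HFD means (6.41 and 7.14) lay under the filter of FPKM 8, so their lower values were favoured by the filter. Between LowMg-HFD and LowMg-LFD mice 1 was higher and 7 lower, where 12.4% and 3.51% of all genes were, with a median of -0.11 beside 0.10.

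At normal Mg2+ the smallest adjusted p values belonged to Slc2a4 (log2 -1.45, SE 0.18), Acsl5, an acyl-CoA synthetase (0.63, SE 0.11), Fads1, a desaturase of polyunsaturated fatty acids (-1.06, SE 0.19), Prkaa1, a catalytic subunit of AMPK, the kinase that inhibits the carboxylases (-0.56, SE 0.10), and Rxra (-0.46, SE 0.09), with limma adjusted p from 6.95e-06 to 0.000604. At low Mg2+ they were Tkt (-1.37, SE 0.26) and Taldo1 (-0.44, SE 0.10) of the pentose phosphate pathway, Pcx (-0.83, SE 0.17), Fads1 (-0.81, SE 0.18) and Mdh1, cytosolic malate dehydrogenase (-0.28, SE 0.08), with limma adjusted p from 0.00224 to 0.0234. G6pdx (0.14, limma adjusted p = 0.587) and Pgd (-0.13, 0.682) of the pentose phosphate pathway were not called there. Among the inhibitors tested, Prkaa1 was lower on the HFD at low Mg2+ too (-0.30, SE 0.10, limma adjusted p = 0.0476). Mlycd, which breaks down malonyl-CoA, Prkab1, Trib1 and Rfwd2 passed in 0 of the 5 contrasts, with log2 differences between LowMg-HFD and NormMg-HFD mice of -0.01, 0.09, -0.23 and -0.03.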

How the data were processed

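RNA from the eWAT of 19 mice was sequenced by the authors at BGI (HiSeq, 50 bp single-end reads). They aligned them with HISAT and Bowtie2 (GRCm38/mm10) and deposited the FPKM of each gene from RSEM 1.2.31 in 1 table, beside a summary of the reads and the percent mapped per mouse, also deposited by the authors. The table lists 24238 genes. A gene with a non-numeric cell was dropped, and 26 symbols that had become dates were restored from the gene identifiers. Columns were matched to mice by their labels.

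Here log2(FPKM + 1) was taken without further scaling. To be tested, a gene needed a group whose mean FPKM exceeded 8 and in which 4 or more mice exceeded 8 (8336 genes passed). A single model of the 4 groups was made with limma 3.58.1 in R 4.3.3, using its intensity trend. From it 5 contrasts were read, and moderated two-sided p values were adjusted by Benjamini-Hochberg over these genes and called at 0.05. Log2 differences on this scale understate those of low genes. The labels name separate mice, so the tests measure the spread between mice.

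The 10 genes, the further pathway list, the marker lists and the tests were chosen with earlier results of these data known. Named were all 10 genes in each contrast, the pathway genes past the threshold (at most the 5 with the smallest adjusted p per contrast) with the inhibitors tested, and the 8 genes most like the mean of the 10 and most like Thrsp. Positions are from GENCODE M21 and promoter windows from RefSeq. As alternatives, the pseudocount was set to 0.1, the filter was lowered to FPKM 1 or omitted, mice were median centred or quantile normalized, each mouse was left out, the model held the compared groups alone or lacked the trend, the replicate number entered as a block, and LowMg-HFD replicate 4 was left out together with a filter of log2(FPKM + 1) over 3. Centring on 12 adipocyte genes and leaving out 3 mice with pancreas or epididymis genes were added after the data were seen. The fit was tested on simulated data with known changes. Figures were drawn with matplotlib 3.10.9.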

Additional observations from a re-analysis of the deposited data

Results flagged for a closer look

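Of 40 groups of values (10 genes in 4 diet groups), 3 had a mouse far from the others by Dixon's ratio at the 95% level, where chance flags about 1 in 20. Fasn was lowest at 307.9 FPKM in LowMg-HFD replicate 1, against 517 to 622 in the other mice of that group (ratio 0.737). Elovl6 was highest at 21.82 FPKM in NormMg-LFD replicate 2, against 13.4 to 14.4 (ratio 0.856). Thrsp was lowest at 568 FPKM in NormMg-LFD replicate 4, against 833 to 876 (ratio 0.886).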

How the results depend on the processing

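Leaving out each mouse in turn gave 3 to 6 genes called in LowMg-HFD against NormMg-HFD mice (all higher), 7 to 9 in NormMg-HFD against NormMg-LFD, 9 to 10 in LowMg-HFD against LowMg-LFD, and 0 on the LFD and in the interaction. Over all genes tested, the calls ranged from 263 to 510 higher in the first comparison, 897 to 1143 lower in the second and 192 to 342 lower in the third. The 3 calls came without NormMg-HFD replicate 3. No filter on low values, which tests 24237 genes, also gave 3 for low Mg2+ on the HFD, where 301 of those genes were higher and 934 lower. Centring on the adipocyte genes gave 1 higher and 4 lower in that comparison, 1 higher and 3 lower (4 in all) for fat at normal Mg2+, 8 lower for fat at low Mg2+, where Srebf1 was lost (-0.21, limma adjusted p = 0.197), and 1 lower in the interaction (Me1, log2 -1.31). Over all 8336 genes it called 19 higher and 7406 lower, 7628 higher and 70 lower, 4026 higher and 57 lower, and 16 higher and 3590 lower in these 4 contrasts. For fat at low Mg2+, 7 were called with only the groups compared (180 of all genes tested lower, 545 higher) and 8 without a filter (212 lower, 748 higher). The centring on the adipocyte genes turned the direction of Srebf1 on the LFD (-0.05), of Me1 for fat at normal Mg2+ (0.94), with Acly (0.08), Elovl6 (0.17) and Srebf1 (0.01), of Acaca (-0.06), Acacb (-0.07), Srebf1 (-0.27) and Mlxipl (-0.26) for low Mg2+ on the HFD, and of the interaction of Acaca (-0.32), Acacb (-0.59), Scd1 (-0.01), Srebf1 (-0.22) and Mlxipl (-0.30).

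Small differences of genes that were not called changed sign under other settings. Fasn on the LFD was -0.11 under quantile normalization, -0.09 with adipocyte centring, -0.0035 with the replicate block and between -0.23 and 0.29 with a mouse left out. Fasn for low Mg2+ on the HFD lay between -0.19 and 0.06, and Me1 for fat at normal Mg2+ between -0.23 and 0.13, with a mouse left out. In the interaction, Fasn was 0.09 under quantile normalization and between -0.40 and 0.12 with a mouse left out, and Acacb between -0.16 and 0.21. The cause was not tested. Same-numbered mice had r from -0.183 to 0.339 over 27 pairs, 5 of them over 0.1, and other pairs had r from -0.265 to 0.201. The highest r was that of a same-numbered pair, so this check does not settle whether the numbers pair the mice. With the replicate block the counts of the lipogenic genes called were the same, 6, 0, 7, 9 and 0. Over all genes tested, the interaction calls went from 41 positive and 63 negative to 0 and 0 with that block. FPKM without read counts leave the depth behind a low gene such as Elovl6 unknown.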
